A study of Mus musculus with 9 samples.

Results

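Lipid droplets are stores of triglyceride inside the cell, and the 10 genes described here act on them or on the fatty acids that fill them. They are Plin2, Plin4, Plin5, Cidec, Cd36, Mogat1, Pparg, Fabp4, G0s2 and Pnpla2, and they were taken by symbol from a table of RNA-seq counts for 24411 genes in 9 mouse livers. All 10 had an entry in the table, and 9 passed the filter on low counts, Mogat1 being the exception. Cidec passed through the livers of the 2 Cre groups alone, so that it could be tested only because it was high there.

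The livers came from 3 genotypes of mice on the C57BL/6 background, with 3 livers each. The mice were 3 months old. The cont. livers were Atg7 flox/flox and carried no Cre. The Atg7-KO livers were Atg7 flox/flox;Alb-Cre, in which the albumin promoter drives Cre. The study describes these mice as hepatocyte-specific knockouts of the gene for the autophagy enzyme ATG7. The third genotype, called S351A here, was Atg7-KO;p62 S351A/S351A, which adds to the hepatocyte deletion a serine-to-alanine change in both copies of p62 (Sqstm1), the autophagy receptor that binds KEAP1. All 9 livers therefore carried floxed Atg7, and livers with the p62 change and intact Atg7 were not analysed here. Atg7-KO against cont. asks what loss of hepatocyte autophagy does to these transcripts, and S351A against Atg7-KO asks what the p62 change does on top of it. The group of S351A replicates 2 and 3 rests on their titles, since their genotype entries name other positions in p62. The titles number the mice within each genotype, and the p-values measure the spread between these mice.

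Library totals ran from 713841 to 15426575 counts, and the 3 S351A libraries, at no more than 792372 counts, were the shallowest. Levels are given as CPM, the count relative to the library total after adjustment by TMM, which sets libraries level for the bulk of genes. The floor was set at 3 counts per library, equal to 0.269 to 3.73 CPM, and was highest in S351A. Atg7 itself, counted over the whole gene and all liver cells, was at 45.1, 57.8 and 42.4 CPM in the cont. livers and, without overlap, between 28 and 30.2 CPM in Atg7-KO (log2 fold change of -0.74, adjusted p = 0.00758), and lay between 21.8 and 24.8 CPM in S351A. Sqstm1 was not called in any comparison, but its groups were not all alike. Its 3 Atg7-KO values (481, 575 and 595 CPM) exceeded every cont. value (406, 477 and 387 CPM). They also exceeded every S351A value (407, 380 and 437 CPM). The edgeR log2 fold change of Sqstm1 was 0.38 for Atg7-KO against cont. (adjusted p = 0.169). It was -0.43 for S351A against Atg7-KO (adjusted p = 0.766) and -0.05 for S351A against cont. (adjusted p = 0.875). By their Xist and Y-linked transcripts, cont. held 1 female (replicate 2) and Atg7-KO and S351A held 2 each, so that sex was unevenly spread over the genotypes.

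A hepatocyte takes up fatty acids through CD36 and other carriers, binds them to cytosolic proteins, joins them to glycerol and stores the triglyceride under a coat of perilipins. CIDEC lets small droplets fuse into large ones, while the lipase ATGL, encoded by Pnpla2, begins to break triglyceride down and is held back by G0S2. In fatty liver the nuclear receptor PPARγ, which is far more abundant in fat tissue than in healthy liver, switches on several of these genes. Pparg, Cidec, Cd36, Mogat1, Fabp4 and Plin4 are commonly used as signs of this program, and Plin2 as a sign of stored fat.

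The promoters of the 4 members with the clearest changes against cont. outside the receptor itself are shown because they moved in opposite directions, Cidec and Cd36 being higher and G0s2 and Plin5 lower in Atg7-KO. Each is a RefSeq window in GRCm38.p6 from 250 bases before to 50 bases after a start site, written 5′ to 3′ in the direction of the gene, with capitals marking AGGTCA or its reverse complement, the motif bound by nuclear receptors. Cidec and Plin5 each have a further window that is not shown, and that of Plin5 also holds AGGTCA. All 4 genes lie on the minus strand, with windows at chr6:113435711-113436010 for Cidec, chr5:17835847-17836146 for Cd36, chr1:193273139-193273438 for G0s2 and chr17:56117499-56117798 for Plin5.
Cidec: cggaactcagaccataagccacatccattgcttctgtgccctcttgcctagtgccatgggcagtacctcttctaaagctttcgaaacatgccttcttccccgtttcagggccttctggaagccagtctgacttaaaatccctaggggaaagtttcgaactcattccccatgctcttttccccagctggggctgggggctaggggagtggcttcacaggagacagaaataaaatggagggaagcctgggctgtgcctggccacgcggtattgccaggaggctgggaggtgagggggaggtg
Cd36: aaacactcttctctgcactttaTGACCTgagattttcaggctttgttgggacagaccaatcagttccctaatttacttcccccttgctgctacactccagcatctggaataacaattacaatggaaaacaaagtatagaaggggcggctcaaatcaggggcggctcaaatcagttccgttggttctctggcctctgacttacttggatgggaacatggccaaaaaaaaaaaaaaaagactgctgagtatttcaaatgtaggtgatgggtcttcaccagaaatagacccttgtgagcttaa
G0s2: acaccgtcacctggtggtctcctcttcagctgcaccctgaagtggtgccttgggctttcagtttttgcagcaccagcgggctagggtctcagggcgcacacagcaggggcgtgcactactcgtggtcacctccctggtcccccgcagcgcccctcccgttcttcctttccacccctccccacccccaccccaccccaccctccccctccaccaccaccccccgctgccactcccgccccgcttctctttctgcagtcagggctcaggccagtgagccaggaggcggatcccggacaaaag
Plin5: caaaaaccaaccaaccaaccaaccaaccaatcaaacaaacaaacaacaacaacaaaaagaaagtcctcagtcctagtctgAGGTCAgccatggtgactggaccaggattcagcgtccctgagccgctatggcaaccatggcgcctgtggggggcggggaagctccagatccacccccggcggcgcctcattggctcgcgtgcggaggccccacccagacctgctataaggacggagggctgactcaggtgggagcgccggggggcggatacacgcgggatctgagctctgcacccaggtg

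Promoter windows were listed for 9 of the 10 members, 13 windows in all, and both strands were searched for 4 motifs. A direct repeat of AGGTCA with 1 base of any kind between the copies, the arrangement on which PPARγ and its partner RXR sit, was in none of the 13 windows and in 0.0396% of 32851 promoters of the same length. The single AGGTCA was in 6 of the 13 windows, which belong to Plin2, Cd36, Pparg and Plin5, and in 16.3% of all windows, and each repeat counts here as well. TGACNNNGC, the core of the element that NRF2 binds, was found at Pparg alone (12.4% of all windows), and the E-box CACGTG at Plin2 alone (7.15%). No match was found at Cidec or G0s2. The motif was therefore present at Cd36, which was higher in Atg7-KO, and at Plin5, which was lower.

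Of the 9 members tested in Atg7-KO against cont., 3 were higher and 2 lower, while 4 were not called. A gene was called when the edgeR quasi-likelihood test gave a Benjamini-Hochberg adjusted p below 0.05 over all 11199 tested genes with a fold change above 1.5. In this comparison 38% of all tested genes were called, 19.9% higher and 18.1% lower, so that a call as such does not set a gene apart. Cidec and G0s2 changed most, in opposite directions. Cidec was 15.9-fold higher, and G0s2 was 23.4-fold lower. Cd36 and Pparg were higher and Plin5 lower, whereas Plin2, Plin4, Fabp4 and Pnpla2 were not called. The livers of the 2 groups did not overlap for the 5 called members, 3 above (26.7% of all tested genes) and 2 below (24.9%). The median log2 fold change of the 9 was -0.11, beside -0.03 over all tested genes.

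**Figure D1:**
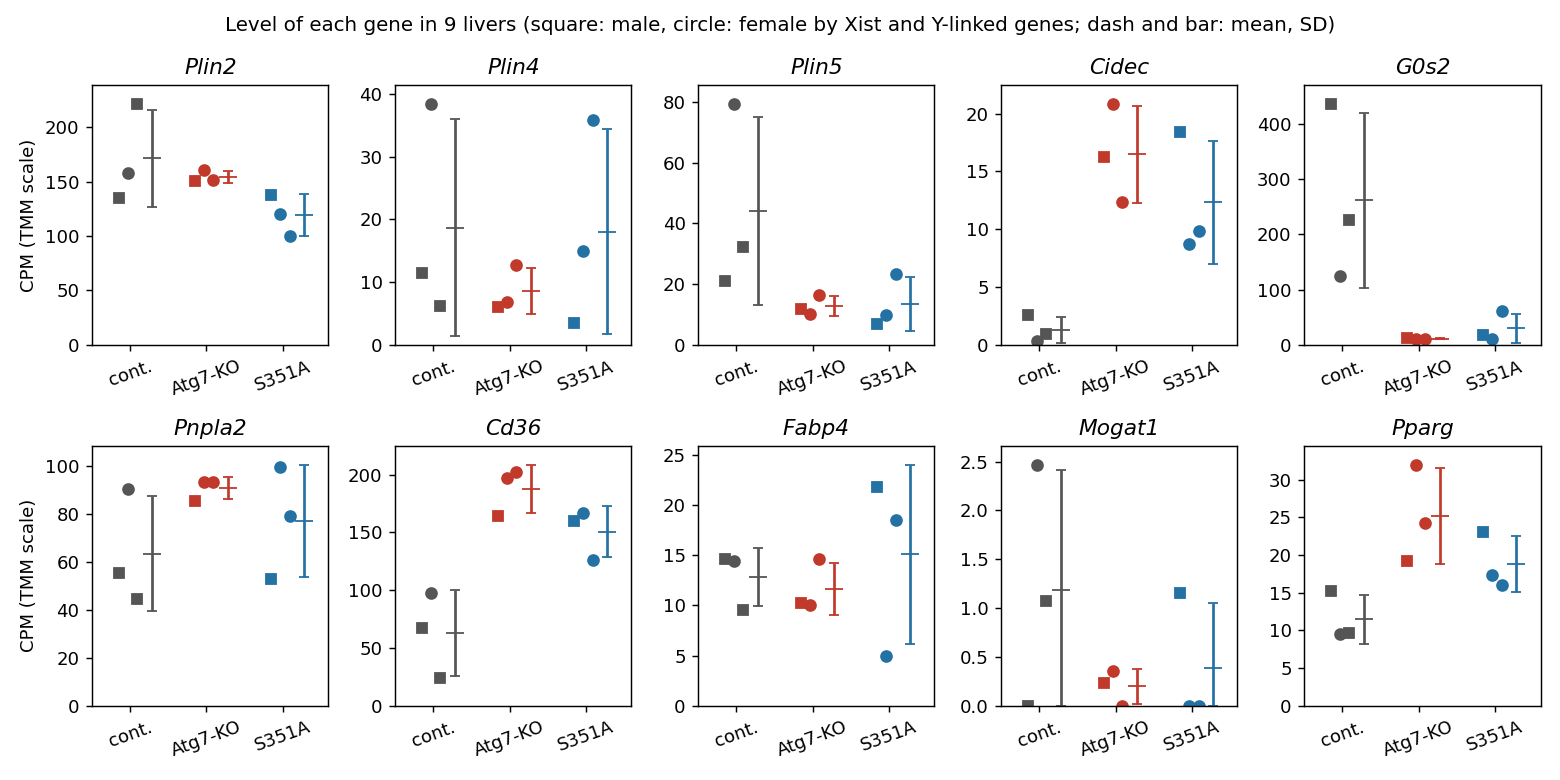
Level of each of the 10 genes in each liver, in CPM on the TMM scale from 0, with squares for male and circles for female livers and a dash and bar for the mean and SD of 3 livers, cut off at 0. The Atg7-KO and S351A points of Cidec all lie above the cont. points, and those of G0s2 all lie below them.

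Pparg (chr6:115360951-115490399, plus strand, mm10) encodes PPARγ, the receptor that drives fat storage in adipocytes. It measured 15.3, 9.51 and 9.59 CPM in the cont. livers, 19.3, 31.95 and 24.25 CPM in Atg7-KO, and 23.0, 17.4 and 16.0 CPM in S351A. Every liver of both Cre groups was above every cont. liver. Atg7-KO exceeded cont. by 1.19 ± 0.27 (SE) on the log2 scale, 2.28-fold, with an adjusted p of 0.00448. The lowest Atg7-KO liver, a male, was close to the highest cont. liver, also a male. When all libraries were thinned to the depth of the shallowest, the difference was 2.02 (adjusted p = 0.00131). In S351A against cont. the difference of 0.78 ± 0.32 was not called (adjusted p = 0.0827).

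Cd36 (chr5:17781690-17888801, minus strand) encodes the fatty acid translocase of the cell surface, which endothelial cells and macrophages also carry. It was at 66.8, 97.9 and 24.2 CPM in the cont. livers, 164, 197 and 202 CPM in Atg7-KO, and 159.7, 166 and 126 CPM in S351A. The 3 groups separated into low cont. livers and high livers of both Cre groups, although the cont. livers differed widely among themselves. Atg7-KO was 3.02-fold higher than cont. (log2 fold change of 1.59 ± 0.39, adjusted p = 0.00608), and S351A was 2.43-fold higher (1.28 ± 0.39, adjusted p = 0.0277). The call in S351A was lost without S351A replicate 1 (1.22, adjusted p = 0.0819), without S351A replicate 2 (1.17, adjusted p = 0.0973) and with only the 6 libraries compared (1.35, adjusted p = 0.0544).

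Fabp4 (chr3:10204088-10208576, minus strand) encodes the fatty acid binding protein of adipocytes, which in liver is found mainly in capillary endothelium and macrophages. The gene was at 14.6, 14.4 and 9.50 CPM in the cont. livers, 10.2, 10.05 and 14.6 CPM in Atg7-KO, and 21.8, 4.97 and 18.5 CPM in S351A. The groups overlapped throughout, and S351A replicate 2 held only 4 counts. Neither Cre group differed detectably from cont. (-0.11 ± 0.37, adjusted p = 0.847 in Atg7-KO, and 0.29 ± 0.42, adjusted p = 0.645 in S351A). The 95% interval in Atg7-KO, from -0.92 to 0.70, leaves room for a change of either sign, and the sign turned positive under scaling by library total (0.43) and without cont. replicate 2 (0.008).

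Mogat1 (chr1:78510991-78538173, plus strand) encodes monoacylglycerol acyltransferase 1, an enzyme that adds a fatty acid to monoacylglycerol. It was the scarcest member, with 0, 7 and 12 counts in cont., 1, 1 and 0 counts in Atg7-KO, and 1, 0 and 0 counts in S351A. All 6 livers of the Cre groups were at or below the floor of 3 counts, and only cont. replicates 2 and 3 were above it. Summed over livers, Atg7-KO held 2 counts against 19 in cont., a ratio of 0.177 with an exact 95% interval from counting of 0.02 to 0.732. The interval covers counting error only, and 12 of the 19 counts came from the deepest library. S351A held 1 count, 0.33 of the cont. level with an interval from 0.00794 to 2.07, so that no difference was detectable at this depth. Mogat1 shares 200 bases of exon with BC035947 on the other strand, and the strand setting of the counting was not given in the sources used here.

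Plin2 (chr4:86648386-86670060, minus strand) encodes perilipin 2, the main droplet coat protein of hepatocytes. It was at 135, 158 and 221 CPM in the cont. livers, 151, 161 and 152 CPM in Atg7-KO, and 138, 120.5 and 99.96 CPM in S351A. The Atg7-KO livers lay inside the range of cont., and all 3 S351A livers lay below all 3 Atg7-KO livers. The difference between Atg7-KO and cont. was -0.15 ± 0.22 (adjusted p = 0.625, 95% interval from -0.64 to 0.33) and thus not called. Under scaling by library total the estimate was 0.40, and without cont. replicate 3, the highest liver, it was 0.071. In S351A against cont. it was -0.53 ± 0.23 and not called (adjusted p = 0.106), but without cont. replicate 1 it was called (-0.69, adjusted p = 0.0399).

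Plin4 (chr17:56100591-56109803) and Plin5 (chr17:56111601-56117596) are neighbours on the minus strand. Perilipin 4 coats small new droplets in adipocytes, and perilipin 5, a coat protein of tissues that burn fat, ties droplets to mitochondria. Plin4 was at 11.4, 38.4 and 6.27 CPM in the cont. livers, 6.03, 6.82 and 12.8 CPM in Atg7-KO, and 3.45, 14.9 and 35.8 CPM in S351A. A single liver in cont. and another in S351A stood far above the others of their group, and all groups overlapped. The difference between Atg7-KO and cont. was -1.13 ± 0.69 (adjusted p = 0.217). That estimate rested on single livers, as it was 0.039 without cont. replicate 2 and was called at -1.67 without cont. replicate 3 (adjusted p = 0.046). It was also called with sex as a covariate (-1.32, adjusted p = 0.0344) and with no filter (-1.17, adjusted p = 0.0258). Plin4 shares 17 bases of exon with Hdgfl2 on the other strand.

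Plin5 was at 20.98, 79.2 and 32.25 CPM in the cont. livers, 11.8, 10.05 and 16.5 CPM in Atg7-KO, and 6.89, 9.93 and 23.5 CPM in S351A. Every Atg7-KO liver was below every cont. liver, while the highest S351A liver exceeded the lowest cont. liver. Plin5 was 3.51-fold lower in Atg7-KO (log2 fold change of -1.81 ± 0.46, adjusted p = 0.00764). Without cont. replicate 2, the liver with the highest level, it was -1.14 and still called (adjusted p = 0.0242). In S351A the difference from cont. was -1.74 ± 0.53 (adjusted p = 0.0287), and the call was lost without cont. replicate 2 (-1.06, adjusted p = 0.0751), without S351A replicate 1 (-1.42, adjusted p = 0.121) and without S351A replicate 2 (-1.59, adjusted p = 0.11). It was also lost under scaling by library total (-1.24, adjusted p = 0.0958), with the 20 genes of highest count left out of the library size (-1.39, adjusted p = 0.0633), with limma-voom (-1.69, adjusted p = 0.0792) and with only the 6 libraries compared (-1.65, adjusted p = 0.0696). Without S351A replicate 3, the liver at 23.5 CPM, the difference was -2.42 (adjusted p = 0.016).

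Cidec (chr6:113424634-113435760, minus strand), also known as Fsp27, was the member with the greatest rise. It held 4, 1 and 10 counts in cont., which correspond to 2.54, 0.352 and 0.896 CPM. The Atg7-KO livers had 16.2, 20.8 and 12.4 CPM, and the S351A livers 18.4, 8.69 and 9.87 CPM. The lowest of the 6 Cre livers, at 8.69 CPM, was well above the highest cont. liver. The log2 fold change was 3.99 ± 0.48 in Atg7-KO (95% interval from 2.94 to 5.04, adjusted p = 7.03e-05) and 3.58 ± 0.55 in S351A (2.37 to 4.78, adjusted p = 0.000684). With 1 count in cont. replicate 2, the size of the fold is less certain than its direction. In a setting with thinned libraries the S351A difference was 4.18.

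Pnpla2 (chr7:141455198-141460743, plus strand) encodes ATGL, the lipase that takes the first fatty acid off triglyceride. It was at 55.3, 90.5 and 44.35 CPM in the cont. livers, 85.4, 93.3 and 93.35 CPM in Atg7-KO, and 52.9, 99.3 and 79.0 CPM in S351A. The Atg7-KO livers lay close together near the upper end of cont., and S351A spanned nearly the whole range. The difference between Atg7-KO and cont. was 0.52 ± 0.28 (adjusted p = 0.16) and was called without cont. replicate 2 (0.87, adjusted p = 0.0186), under scaling by library total (1.05, adjusted p = 0.0114) and with the 20 genes of highest count left out of the library size (0.88, adjusted p = 0.0203). In S351A against cont. it was 0.28 ± 0.29 (adjusted p = 0.498).

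G0s2 (chr1:193272161-193273217, minus strand) encodes the small protein that binds ATGL and blocks it. It measured 436, 125 and 226 CPM in the cont. livers, 11.6, 11.1 and 10.5 CPM in Atg7-KO, and 18.4, 11.2 and 60.5 CPM in S351A. The lowest cont. liver was above the highest liver of both Cre groups. The log2 fold change was -4.55 ± 0.56 in Atg7-KO (95% interval from -5.77 to -3.33, adjusted p = 8.08e-05) and -3.12 ± 0.55 in S351A (adjusted p = 0.00151), 8.72-fold lower. Without S351A replicate 3, the liver at 60.5 CPM, the S351A difference was -4.15 (adjusted p = 0.000426). The Atg7-KO counts behind these levels were 50, 31 and 23, so the low level was well above the floor.

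Levels of different genes were compared as CPM per kilobase of the longest coding transcript. In cont., G0s2 stood first at 301 ± 182 (SD, n = 3), followed by Plin2 at 90.8 ± 23.7. Pnpla2 (24.2 ± 9.19), Plin5 (22.2 ± 15.6), Cd36 (18.5 ± 10.9) and Fabp4 (14.3 ± 3.25) came next and did not differ beyond their spread. Cidec, at 0.735 ± 0.663, had the lowest mean but was not told apart from Mogat1 at 0.961 ± 1.01. In Atg7-KO the order was headed by Plin2 at 81.9 ± 3.01 and Cd36 at 55.2 ± 6.08, and G0s2 had moved to the fifth place at 12.7 ± 0.619 among Fabp4 (13.0 ± 2.91), Pparg (11.8 ± 3.01) and Cidec (9.58 ± 2.46), whose ranges overlapped. By mean, S351A kept Plin2 (63.3 ± 10.1) and Cd36 (44.3 ± 6.39) at the head, with G0s2 at 34.5 ± 30.6 and Pnpla2 at 29.4 ± 8.88 behind them. The spread of G0s2, wide through S351A replicate 3 (60.5 CPM against 18.4 and 11.2 CPM), reached the means of Plin2, Cd36 and Pnpla2. Its place among these was therefore not told apart. The inhibitor G0s2 thus had a per-length level above that of its target Pnpla2 in cont. and below it in Atg7-KO (34.6 ± 1.75 for Pnpla2).

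In S351A against Atg7-KO none of the 9 tested members was called by edgeR, with 1 of 11199 genes called over the table (0.00893%). DESeq2 and limma-voom also called none of the members, and 1 member, G0s2, had an unadjusted p below 0.05 (3.38% of all tested genes had one with a higher level and 3.21% with a lower one). G0s2 was higher in S351A by 1.42 ± 0.58 on the log2 scale (95% interval from 0.17 to 2.68, adjusted p = 0.737). Without S351A replicate 3 the difference was 0.41 (adjusted p = 0.881). Only Plin2 had no overlap between the groups, being lower in all 3 S351A livers (-0.37, interval from -0.87 to 0.13), as were 9.23% of all tested genes, and for none were the 3 S351A livers all higher (7.67% of all tested genes).

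The intervals of the other members show how large a difference these livers could have hidden. For Cd36 the interval ran from -1.14 to 0.51, for Pparg from -1.06 to 0.25, for Pnpla2 from -0.87 to 0.39 and for Cidec from -1.33 to 0.50, all with estimates below 0. A return of Cidec to its cont. level, 3.99 below Atg7-KO, lies far outside its interval. Plin5 (0.08, from -1.18 to 1.34), Fabp4 (0.40, from -0.52 to 1.33) and Plin4 (1.11, from -0.60 to 2.82) had estimates above 0, and that of Plin4 was 0.12 without S351A replicate 3. The estimate for Plin5 took either sign, from -0.60 without the same liver to 0.40. The median over the 9 was -0.24, beside 0.01 over all tested genes.

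Against cont., S351A had 2 members higher, Cidec and Cd36, and 2 lower, G0s2 and Plin5, of the 9 tested, where 28.6% of all tested genes were called, 15.6% higher and 13% lower. All 4 were also called in Atg7-KO, but the comparisons share the cont. livers and are not independent. Members with no overlap between the livers were Cidec, Cd36 and Pparg above cont. (19.6% of all tested genes) and G0s2 below it (18.4%). Pparg did not pass the test, but was called in 4 settings, without cont. replicate 1 (0.96, adjusted p = 0.0401), with thinned libraries (1.47, adjusted p = 0.0158), with the 20 genes of highest count left out of the library size (1.11, adjusted p = 0.0201) and under scaling by library total (1.28, adjusted p = 0.0104). With that last scaling the split of members was 3 higher and 1 lower, as the call of Plin5 was lost (-1.24, adjusted p = 0.0958). Plin4 was level with cont. (-0.02 ± 0.74), with an interval from -1.64 to 1.59.

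**Figure D2:**
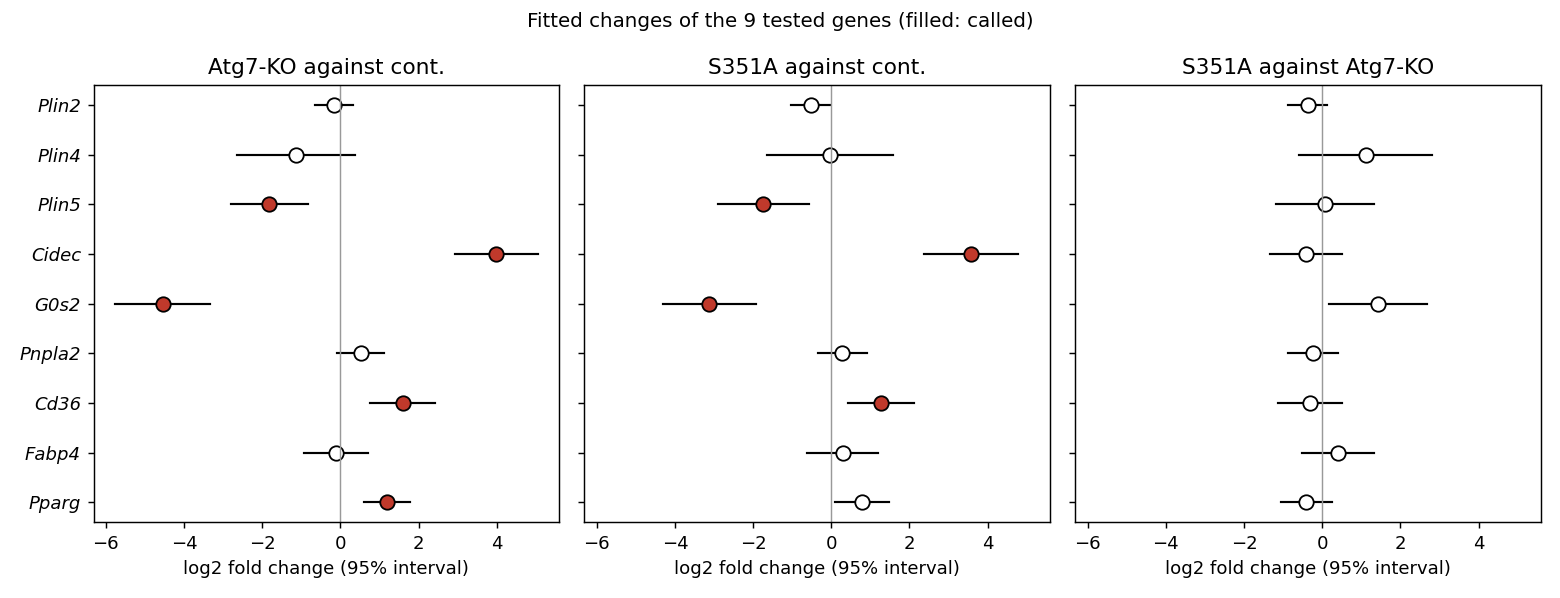
Fitted log2 fold change of the 9 tested genes in the 3 comparisons, with 95% intervals and filled points for genes called by edgeR. Cidec at 3.99 and G0s2 at -4.55 stand farthest from 0 in Atg7-KO against cont., and no point is filled in S351A against Atg7-KO.

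With sex as a covariate in the edgeR fit, the 5 members called in Atg7-KO against cont. were called again, with log2 fold changes of 4.21 for Cidec, 1.51 for Cd36, 1.18 for Pparg, -4.38 for G0s2 and -1.94 for Plin5, and Plin4 was called as well. Within each sex there were only 1 or 2 livers a side, so the values that follow are log2 ratios of mean CPM with 1 added, without a test. In Atg7-KO against cont. Cidec was higher by 2.66 in males and 3.70 in females, Cd36 by 1.83 and 1.02, and Pparg by 0.59 and 1.47, and in each case the livers did not overlap. G0s2 was lower in both sexes as well (-4.72 in males and -3.42 in females), and so was Plin5 (-1.11 and -2.49). For Pnpla2 the male difference was 0.77 and the female difference 0.04, the female cont. liver being the highest of its group. In S351A against Atg7-KO, Cidec, Pparg and Fabp4 were higher in the single male (0.17, 0.24 and 1.03). The same genes were lower in the females (-0.77, -0.72 and -0.07), which was not tested. Mogat1, at or below the floor in these livers, had 0.80 in the male and -0.24 in the females. Plin4 and Plin5 had the reverse pattern, at -0.66 and -0.70 in the male and 1.28 and 0.31 in the females.

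Marker genes of other cell types moved with the genotype. In bulk tissue, fewer cells of a type and less RNA per cell cannot be told apart. Of 10 hepatocyte markers, 9 were called lower in Atg7-KO, and the other, Hnf4a, was not called and had a positive estimate (0.38). The summed level of the 10 was 49310 to 107100 CPM in cont. against 32080 to 39630 CPM in Atg7-KO and 30220 to 45540 CPM in S351A. Alb was the most abundant of them and kept its call in 13 of 20 settings, and the median log2 fold change of the list was -1.34. Under scaling by library total Alb (-0.62) and F9 (-0.25) lost their calls, and Hnf4a was called higher (0.905). Macrophages, which also express Cd36, Fabp4, Plin2 and Pparg, had 7 of 12 markers higher and 1 lower, with sums of 226 to 341 CPM in the cont. livers, 345 to 448 CPM in Atg7-KO and 329 to 341 CPM in S351A, and Clec4f as the most abundant. Stellate cell and matrix markers were higher in 7 of 10 (297 to 598 CPM against 1338 to 1809 and 1218 to 1749 CPM, led by Dcn), and ductular markers in all 6 tested of 7 (74.7 to 125 CPM against 870.4 to 1269 and 787 to 1274 CPM, led by Spp1). No cont. liver reached the minimum of the filter for Krt19, Krt7 and Epcam of the ductular list, Trem2, Gpnmb and Cd14 of the macrophage list, Lum of the matrix list or Cd34 of the endothelial list, so that these genes could be tested only because they were high in the Cre groups, and Timd4 of the macrophage list only because it was high in cont. For endothelium, 2 of 8 tested were higher and 2 lower, led by Stab2, with sums of 111 to 205 CPM in the cont. livers, 145 to 176 CPM in Atg7-KO and 134 to 165 CPM in S351A.

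Adipocytes express Pparg, Cidec, Plin4 and Fabp4 at high levels. Of 6 adipocyte markers, 4 were at or under the floor in all 9 livers, Lep had no count at all, and Adipoq was at 0 in cont. and S351A and at most 0.359 CPM in Atg7-KO. Cfd, which did not pass the filter, was above the floor in the cont. livers (5.09, 1.41 and 0.54 CPM), at most 0.464 CPM in Atg7-KO and at 0 in S351A. Adrb3 made up nearly all of the sum, 27.8 to 60.4 CPM in the cont. livers, 39.2 to 48.1 CPM in Atg7-KO and 19.9 to 34.6 CPM in S351A. The part of adipocytes and of the other cell types in the levels of the members was not tested.

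The other genes of the pathway were taken from 6 lists with 74 genes, of which 69 were tested. In Atg7-KO against cont., where 19.9% of all tested genes were called higher and 18.1% lower, 10 were higher, 18 lower and 41 not called. Their median log2 fold change was -0.50. Scaling by library total took the median over all genes tested from -0.03 to 0.52 and changed this split to 19 higher and 12 lower, and that over all genes from 2226 higher and 2027 lower to 4312 and 796. No pathway gene that was called turned its direction under any of the settings. In S351A against Atg7-KO, edgeR called none of the 69, DESeq2 and limma-voom called none either, and 2 had an unadjusted p below 0.05 with a higher and 1 with a lower level. In S351A against cont., where 15.6% of all tested genes were called higher and 13% lower, 7 were higher and 14 lower. The split was 13 and 7 with scaling by library total, and the median as reported was -0.39.

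Fatty acid uptake and binding had the most calls in number, with 3 higher and 6 lower of 14 in Atg7-KO against cont. Of all tested genes, 38% were called in this comparison, 19.9% higher and 18.1% lower, the shares to set beside each list below. Lpl, the lipoprotein lipase that frees fatty acids from circulating triglyceride and is low in adult hepatocytes, was higher by 3.82 ± 0.34 (adjusted p = 8.61e-06). Its mean was 67.8 CPM in cont. against 957 CPM in Atg7-KO, and means are given in that order from here on. Fabp5, a binding protein of skin and macrophages, was higher by 1.84 ± 0.45, by 2.89 without cont. replicate 3, by 2.83 after thinning and by 2.44 under scaling by library total. Of the cont. livers, 1 reached the filter's minimum for Fabp5, against all livers of the Cre groups. Acsl1, which activates fatty acids in the liver, was lower by 2.89 on the log2 scale (1204 against 162.5 CPM, adjusted p = 2.61e-05). Fabp1, the binding protein of hepatocytes, was lower with a log2 fold change of -2.45 ± 0.46, and of -1.81 without cont. replicate 3. A further 1 called higher and 4 called lower had smaller differences, and 5 were not called.

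Droplet coat and assembly genes other than the members had 1 higher and 3 lower of 12 tested. Plin3, the perilipin found free in the cytosol, was higher by 1.06 ± 0.23 (adjusted p = 0.00297). Rab18, a small GTPase on droplets, was lower at -1.19 ± 0.24 (adjusted p = 0.00186). Fitm1, which helps to bud droplets from the ER, was lower at -0.95 ± 0.32 (adjusted p = 0.0348) and kept its call in 11 of 20 settings. Its call was lost without cont. replicate 1 (-0.72, adjusted p = 0.102), Atg7-KO replicate 1 (-1.10, adjusted p = 0.0575), Atg7-KO replicate 2 (-0.89, adjusted p = 0.11) and Atg7-KO replicate 3 (-0.90, adjusted p = 0.108). It was also lost under scaling by library total (-0.41, adjusted p = 0.35), without the 20 genes of highest count (-0.59, adjusted p = 0.181), with at least 10 counts in every library (-0.86, adjusted p = 0.0551), with sex as a covariate (-0.72, adjusted p = 0.0532) and after thinning (-1.10, adjusted p = 0.0667).

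Among 6 lipolysis genes, 3 were higher and 1 lower. Pnpla3, a relative of ATGL with a role in human fatty liver, was higher by 1.77 ± 0.35 (2.94 against 10.7 CPM) and by 2.50 ± 0.38 in S351A against cont. After thinning these differences were 2.43 and 3.24. Pnpla3 passed the filter through the Cre groups alone, where it was high. Lipa, the lysosomal acid lipase, was higher by 1.02 ± 0.24 (169 against 343 CPM, adjusted p = 0.00469). Mgll, which splits monoacylglycerol, was lower at -1.40 ± 0.29 (adjusted p = 0.00258). Triglyceride synthesis had 1 higher and 2 lower of 13 tested. Lpin3, a phosphatidate phosphatase, was higher by 1.21 ± 0.21. Agpat6, now named Gpat4, which adds the first fatty acid to glycerol phosphate, was lower at -1.25 ± 0.26, a call lost only under scaling by library total (-0.73, adjusted p = 0.0572). Dgat2, the enzyme of the last step, was lower at -1.02 ± 0.28 (404 against 199.5 CPM, adjusted p = 0.0121), a call lost under scaling by library total (-0.49, adjusted p = 0.176), with the 20 genes of highest count left out of the library size (-0.66, adjusted p = 0.0701) and without Atg7-KO replicate 1 (-0.90, adjusted p = 0.064).

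Of 16 regulators, 1 was higher and 5 were lower in Atg7-KO. Klf6, a zinc finger factor of injury responses, was higher by 3.56 ± 0.38 (25.2 against 289.7 CPM). Mlxipl, encoding the glucose-responsive factor ChREBP, was lower at -2.18 ± 0.38 (1276 against 282 CPM), and Srebf1, encoding the lipogenic factor SREBP1, at -1.85 ± 0.36. Pparg thus moved the opposite way to these factors, which drive fatty acid synthesis. Among 8 tested PPAR-responsive genes other than the members, Ucp2, a mitochondrial carrier, was higher by 2.40 ± 0.31 and Acot1, a cytosolic thioesterase with near-identical relatives between which reads may be split, was lower at -2.98 ± 0.49 (-3.58 without Atg7-KO replicate 1). Acot1 passed the filter only because all 3 cont. livers, where it was high, reached its minimum. The other 6 were not called. In S351A against cont., Lpl (3.75 ± 0.34), Klf6 (3.30 ± 0.38), Acsl1 (-2.54 ± 0.30), Fabp1 (-2.07 ± 0.46), Mlxipl (-1.99 ± 0.38) and Ucp2 (2.20 ± 0.31) were called in the same directions, with Fabp1 at -1.43 without cont. replicate 3 and Mlxipl at -2.69 without S351A replicate 3.

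Of the other genes named, 5 were not called in S351A against cont.: Mgll (-0.66, adjusted p = 0.107), Lpin3 (0.40, adjusted p = 0.24), Agpat6 (-0.68, adjusted p = 0.0728), Fabp5 (1.17, adjusted p = 0.111) and Fitm1 (-0.69, adjusted p = 0.156). Some settings did call them, Fabp5 in 7 of 19, Agpat6 in 3 of 20 and Mgll, Lpin3 and Fitm1 in 2 of 20 each. Calls that some settings removed were those of Plin3, Rab18, Lipa, Dgat2, Srebf1 and Acot1. Plin3 (0.74 ± 0.23) and Acot1 (-1.64 ± 0.54) lost theirs in 9 settings each. For Plin3 these were leaving out cont. replicate 1, cont. replicate 3, a liver of the pair Atg7-KO 2 and 3 or of the pair S351A 1 and 2, with no filter, after thinning and with 6 libraries (0.59 to 0.81, adjusted p from 0.0535 to 0.138). For Acot1 they were leaving out cont. replicate 2, Atg7-KO replicate 3 or any S351A liver, scaling by library total with or without the 20 genes of highest count, limma-voom and 6 libraries (-2.10 to -1.16, adjusted p from 0.0523 to 0.137). Dgat2 (-1.04 ± 0.28) was not called without S351A replicate 1 or 2, with 6 libraries or under scaling by library total with or without those 20 genes (-0.98 to -0.54, adjusted p from 0.0682 to 0.159). Lipa (0.90 ± 0.24) lost its call without S351A replicate 1 (0.70, adjusted p = 0.075) or 2 (0.81, adjusted p = 0.0602), Srebf1 (-1.51 ± 0.37) without S351A replicate 1 (-1.35, adjusted p = 0.0504), and Rab18 (-1.14 ± 0.25) under scaling by library total (-0.66, adjusted p = 0.0725).

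**Figure D3:**
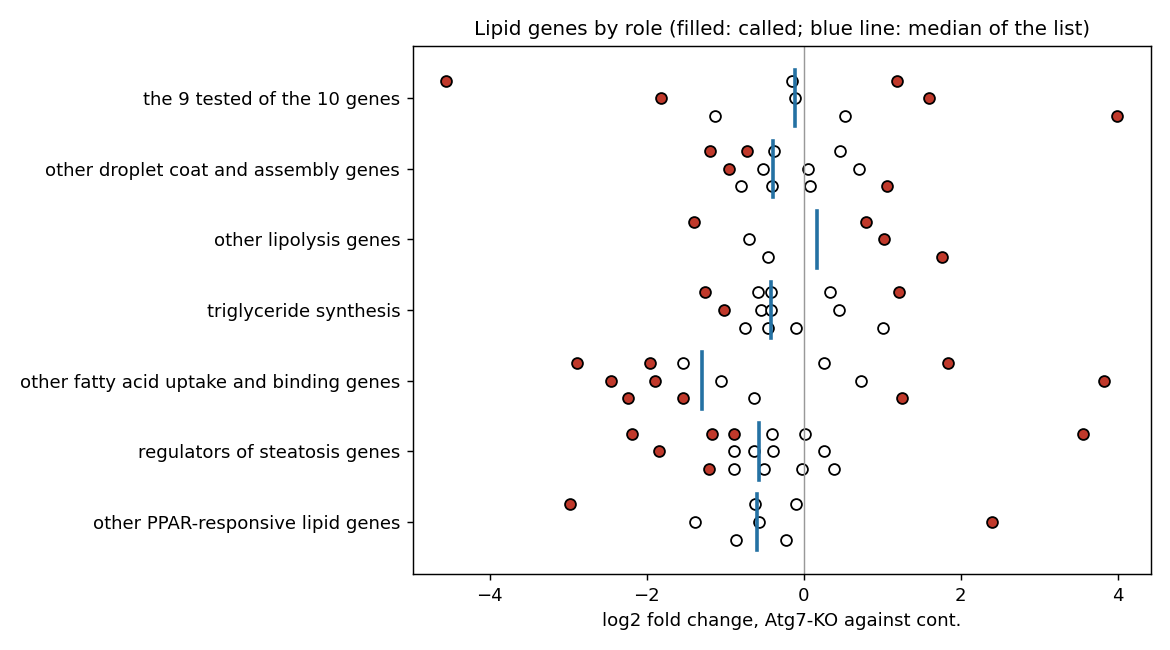
Log2 fold change in Atg7-KO against cont. of each tested gene, by role, with filled points for called genes and a blue line at the median of each list. The 9 tested members reach from -4.55 to 3.99, and most filled points of the uptake and regulator lists lie below 0.

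**Figure D4:**
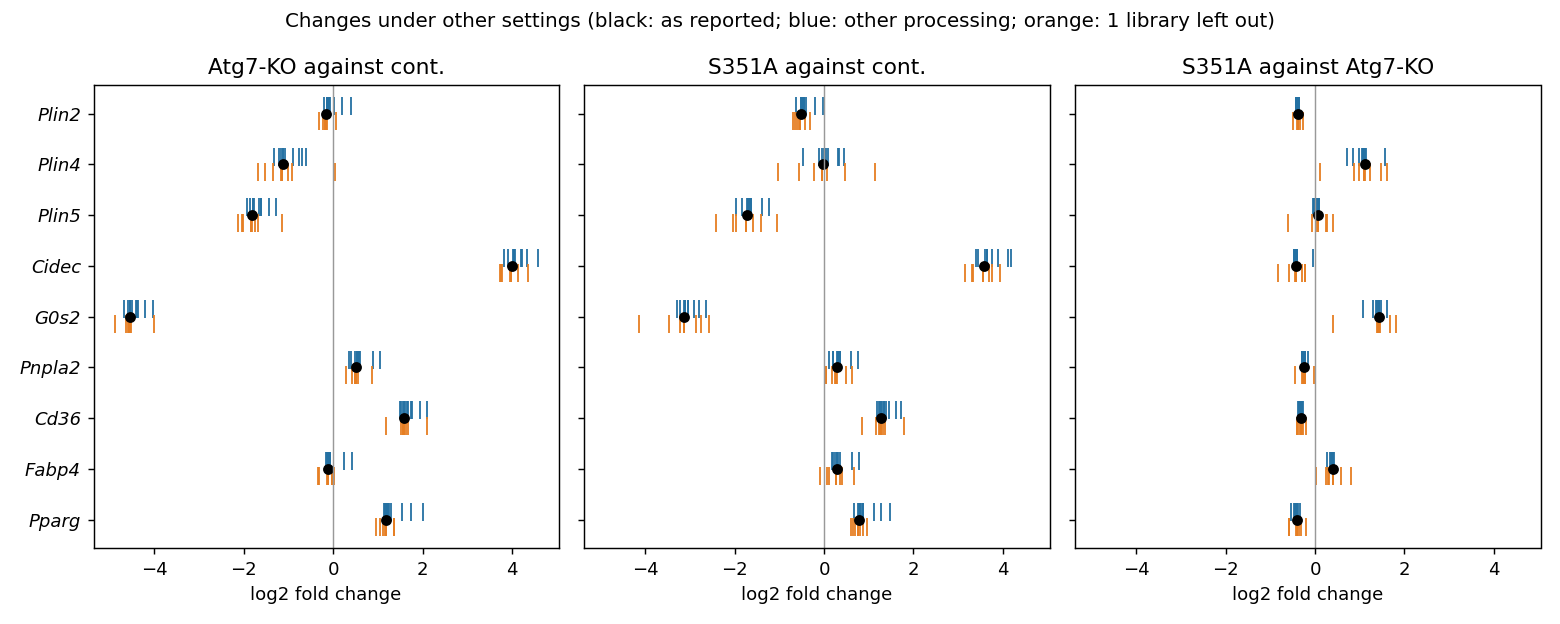
Log2 fold change of the 9 tested genes as reported (black) and under other processing (blue) or with 1 library left out (orange). In Atg7-KO against cont., Cidec stays between 3.74 and 4.57 and G0s2 between -4.89 and -4.00, whereas Plin4 reaches from -1.67 to 0.039.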

How the data were processed

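Poly(A) RNA of 9 livers was sequenced as single-end reads. Per the submitters' processing notes, reads were trimmed with Trim Galore, mapped to mm10 with STAR and counted with RSEM, and the deposited table holds RSEM expected counts per gene without scaling. Tool versions, annotation and strand setting are not given in the sources used here. Between 4.4% and 7.75% of the values of a library were not whole, and all were rounded to whole counts. Groups and replicate numbers came from the titles. Deviations from the group means of same-numbered S351A and cont. livers correlated at 0.242, 0.177 and 0.164, so a fit with the number as a block was run for pairing.

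Genes were filtered with filterByExpr (minimum count 10, minimum total 15), scaled by TMM and tested in edgeR 4.0.16 (R 4.3.3) with the quasi-likelihood test on all 9 libraries, 1 term per group. A gene was called at a Benjamini-Hochberg adjusted p below 0.05 and a fold change above 1.5. SEs were taken from the test statistic, and intervals cover 95%. The script was tested on simulated data. Intervals and floors from counts cover counting error only, as reads are not independent molecules.

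The 10 genes and all lists were chosen with earlier results of these data known. In the text, all 10 are named, with Atg7 and Sqstm1, each pathway list's 2 called genes with the greatest change in each direction in Atg7-KO against cont., and each marker list's most abundant gene. Other marker genes were named after their values were seen. Positions are from GENCODE M21, where 23379 of 24411 symbols matched. Alternatives were other scalings, filters, tools (DESeq2 1.42.0, limma 3.58.1), covariates, thinning to the smallest library and leaving out each library.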

Additional observations from a re-analysis of the deposited data

How the results depend on the processing

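The calls of Cidec, Cd36, Pparg, G0s2 and Plin5 in Atg7-KO against cont. held under every alternative in which the gene was tested (19 or 20 of them per gene), and so did those of Cidec and G0s2 in S351A against cont. With at least 10 counts required in every library, only 4 members could be tested, and in Atg7-KO against cont. 0 were lower and 2504 of 6887 genes were called (4253 as reported), while in S351A against cont. 1 member was higher, 0 were lower and 1941 genes were called (3208 as reported). Thinning gave 2653 and 2117 genes called in these comparisons. Fitting only the 6 libraries compared gave 1 member higher, 1 lower and 1849 genes in S351A against cont. There, 1 member was lower under scaling by library total, without the 20 genes of highest count, and with limma-voom. With 1 library left out, S351A against cont. had 1 to 3 members higher, 1 to 3 lower and 2098 to 3572 genes called.

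In S351A against Atg7-KO the count of genes called was 98 with no filter, 40 with DESeq2, 10 with 6 libraries, 0 with limma-voom, thinning or at least 10 counts, and 0 to 3 with 1 library left out. None of the members was among them in any setting.

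Estimates of uncalled members that changed sign were as follows, and the cause was not tested. In Atg7-KO against cont., Plin2 was 0.40 by library total, 0.202 without the 20 genes, 0.012 thinned and from -0.316 to 0.071 (without cont. replicate 3) with 1 library left out. Fabp4 was 0.428 by library total, 0.246 without the 20 genes and from -0.347 to 0.008 (without cont. replicate 2) with 1 library left out, and Plin4 ran likewise from -1.672 to 0.039 (without cont. replicate 2). In S351A against cont., Plin4 was 0.451 by library total, 0.318 without the 20 genes, 0.029 with limma-voom, 0.047 with 6 libraries, 0.338 thinned, 0.083 with the replicate block and from -1.029 to 1.143 with 1 library left out, and Fabp4 ran from -0.094 (without S351A replicate 1) to 0.674. In S351A against Atg7-KO, Plin5 was -0.022 with limma-voom, -0.045 with sex, -0.003 thinned, -0.013 with the replicate block and from -0.596 (without S351A replicate 3) to 0.40 with 1 library left out. Mogat1, tested only with no filter, had -2.41 (adjusted p = 0.114), 0.74 (0.96) and -1.67 (0.485) in the order Atg7-KO against cont., S351A against Atg7-KO and S351A against cont.

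Whether the replicate numbers pair the livers could not be told, since replicate 1 was male and replicate 2 female in every group. Deviations of the Atg7-KO livers from their group mean correlated with those of the same-numbered cont. livers at 0.252, 0.0923 and -0.0361. With the same-numbered S351A livers they correlated at 0.307, 0.0737 and 0.0922, and not every liver correlated best with its own number. With the replicate block 2297 genes were higher and 2016 lower in Atg7-KO against cont., 0 and 1 in S351A against Atg7-KO, and 1863 and 1543 in S351A against cont., and no member's call changed. The S351A libraries are the shallowest, and there 3 counts correspond to 3.45 to 3.73 CPM, which limits Mogat1 most, followed by Cidec, Plin5, Fabp4 and Plin4, the members with the fewest counts in S351A.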
